A study of Mus musculus with 16 samples.

Results

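Itch neuron peptides and receptors were read in the bulk RNA of mouse dorsal root ganglia, the clusters of sensory nerve cell bodies beside the spinal cord. The group held 8 genes chosen by symbol for their known roles: the peptides Nppb, Sst and Nts, the cytokine receptor subunits Il31ra and Osmr, and the G protein-coupled receptors Htr1f, Cysltr2 and Lpar3. All 8 were found once each among the 24982 entries of the count table, and all 8 were among the 15507 genes that passed the filter on low counts and were tested.

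These genes are known from the small-diameter skin afferents that carry itch. In the mouse, a class of non-peptidergic neurons marked by Nppb and Sst senses interleukin-31, leukotrienes and serotonin and releases natriuretic polypeptide b and somatostatin onto spinal cord neurons. Interleukin-31 acts through a receptor made of the Il31ra and Osmr proteins, and Osmr also pairs with gp130 (Il6st) to form a receptor for oncostatin M. Lpar3, a receptor for the lipid lysophosphatidic acid, is better known from the neighbouring non-peptidergic class that carries Mrgprd.

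Libraries came from 4 groups of 4. These were TrkA/C knock-in (KI) mice with complete Freund's adjuvant (CFA, an oily suspension that provokes lasting inflammation) in the ankle joint, KI mice with vehicle, wild-type (WT) mice with CFA and WT mice with vehicle. The vehicle groups are titled saline. All mice were C57BL/6 and 10 to 12 weeks old, and the ganglia L4 to L6 of the injected side were taken after 14 days, 6 ganglia from 2 mice to a library. The labels do not describe the knock-in construct, so which cells carry it is not given. The ankle, not the skin, was injected, and L4 to L6 ganglia hold neurons of many targets.

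The genotype labels were checked on Ntrk3, which encodes TrkC. Its level was 99.1 to 138 CPM (counts scaled to the same normalized library total) in the 8 KI libraries, against 29.3 to 61.4 CPM in the 8 WT libraries. WT CFA 1, which carries a knock-in tag against its title, had 48.4 CPM and lay with WT. Library totals ran from 22742209 to 40910947 counts. The summed level of 8 general neuron markers was 10934 to 11542 CPM in KI saline, below the range of every other group. One of these markers, Tubb3, was called lower in KI (log2 fold change -0.16 ± 0.03 SE over both injections). The summed level of 8 skeletal muscle markers reached 773 CPM in KI saline, 48.7 in KI CFA and 67.1 in WT saline, and at most 3.40 in WT CFA. Of 8 spinal cord markers, 2 to 4 had no count in each library, and their sum was 10.5 to 19.0 CPM.

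The 3 peptide genes lie on different chromosomes. In build GRCm38, Nppb spans chr4:147985788-147987205 on the plus strand, Sst chr16:23889573-23890958 on the minus strand and Nts chr10:102481756-102490486 on the minus strand. The 250 bases before the RefSeq start of each (GRCm38.p6) are shown. Capitals mark motifs found by letter search on both strands. Whether a motif bears on the level of these genes or on their spread between libraries was not tested.
Nppb: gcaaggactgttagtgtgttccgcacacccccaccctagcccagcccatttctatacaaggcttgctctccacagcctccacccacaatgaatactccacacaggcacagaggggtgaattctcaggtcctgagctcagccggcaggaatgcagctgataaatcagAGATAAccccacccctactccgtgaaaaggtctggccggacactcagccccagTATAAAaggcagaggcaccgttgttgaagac
Sst: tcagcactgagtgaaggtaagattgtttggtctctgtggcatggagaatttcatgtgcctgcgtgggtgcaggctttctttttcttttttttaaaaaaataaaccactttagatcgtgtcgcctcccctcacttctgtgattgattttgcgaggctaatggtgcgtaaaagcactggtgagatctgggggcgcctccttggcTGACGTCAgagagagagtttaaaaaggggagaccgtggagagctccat
Nts: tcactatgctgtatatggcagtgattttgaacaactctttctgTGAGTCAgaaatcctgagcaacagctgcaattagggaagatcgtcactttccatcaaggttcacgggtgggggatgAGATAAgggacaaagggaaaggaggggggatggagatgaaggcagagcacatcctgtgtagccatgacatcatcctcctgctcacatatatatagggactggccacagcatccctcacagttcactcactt
The windows lie at chr4:147985650-147985899 on the plus strand, chr16:23890845-23891094 on the minus strand and chr10:102490419-102490668 on the minus strand. GENCODE models of these genes begin further upstream than the RefSeq starts. The letters searched were TGACGTCA for the cAMP response element, TGANTCA for the AP-1 motif, TTCNNNGAA for the STAT motif, AGATAA for the GATA motif and TATAAA for the TATA box. No match overlapped a match of another motif. Sst held the cAMP response element 48 to 41 bases before its start, a motif in 1.55% of 32851 promoters of the same length. Nts held AP-1 at 207 to 201 and GATA at 131 to 126 bases before its start. Nppb held GATA at 84 to 79 and TATA at 31 to 26. AP-1 was in 6.75%, GATA in 9.99% and TATA in 12.4% of all promoters. Of the other members, the Il31ra window held the STAT letters (7.02% of promoters) and the Htr1f window GATA, and no searched letters were found in the windows of Osmr, Cysltr2 and Lpar3.

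Per kilobase of the longest coding transcript, Lpar3 had the highest level, with a median of 30.6 CPM per kb over the 16 libraries and a range of 26.1 to 36.7. Osmr followed at 14.2 (11.7 to 16.1). The peptides Nppb at 10.9 and Sst at 10.8 CPM per kb came next, then Il31ra at 8.09, Nts at 6.45, Cysltr2 at 5.69 and Htr1f at 2.41. In this order, the ranges of neighbours overlapped from Osmr down to Cysltr2. Lpar3 lay above Osmr, and Cysltr2 above Htr1f, in every library. Taking all annotated exons as the length, an alternative chosen after seeing the data, put Osmr at 6.44, Il31ra at 5.25 and Cysltr2 at 3.49 CPM per kb and left the other members as they were.

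**Figure D1:**
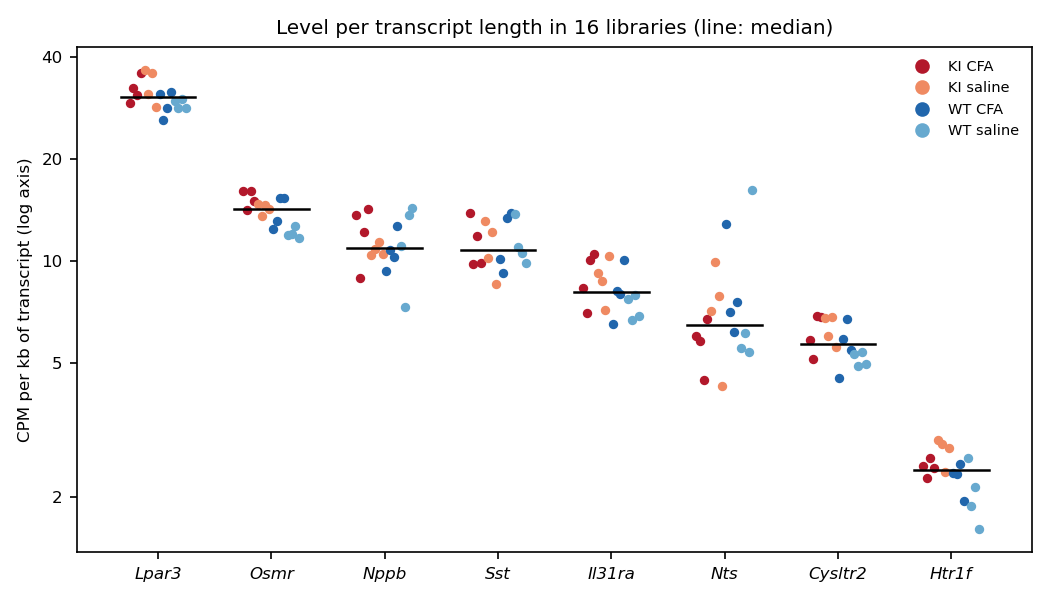
Level of each gene in CPM per kilobase of its longest coding transcript (log axis), 1 point a library in 4 group colours. Lpar3 lies above all others in its range of 26.1 to 36.7 and Htr1f below all others at a median of 2.41, and the 6 genes between them overlap with their neighbours.

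Osmr was the 1 member of the 8 that was called between genotypes over both injections. It was called higher in KI, and the receptors Htr1f, Cysltr2, Lpar3 and Il31ra had fold changes of similar size that missed the threshold. The peptides Nppb, Sst and Nts were not called, with estimates near 0 or below it. Called means an adjusted p under 0.05 (Benjamini-Hochberg over all 15507 genes) in edgeR's quasi-likelihood test. In this comparison 8.96% of all tested genes were called and 4.33% were called higher, so 1 of 8 is near the background share. At an unadjusted p under 0.05 the count was 5 of 8, all higher in KI, against 24.4% of tested genes in either direction and 11.5% higher.

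Osmr (chr15:6813577-6874969, minus strand) encodes the signalling subunit that the oncostatin M and interleukin-31 receptors share. It had 88.3, 77.8, 88.4 and 82.8 CPM in KI CFA and 80.8, 74.6, 80.1 and 78.3 CPM in KI saline, against 68.2, 72.2, 84.5 and 84.5 CPM in WT CFA and 65.7, 66.2, 69.7 and 64.3 CPM in WT saline. Every KI library lay above 6 of the 8 WT libraries, and WT CFA 3 and 4 lay within the KI range. The mean was 81.4 ± 4.91 CPM in KI and 71.9 ± 8.15 CPM in WT (SD, n = 8 each). The log2 fold change was 0.18 ± 0.05 SE, a fold of 1.13 with a 95% interval of 1.06 to 1.22 (edgeR adjusted p = 0.0211), and 8 of 8 KI libraries exceeded the WT median. The call was kept in each of the 16 fits without 1 library. It ended without WT CFA 1 and 2 together (0.12, edgeR adjusted p = 0.0828) and with a muscle score as a covariate (0.18, edgeR adjusted p = 0.0872). WT CFA 1 and 2 carry the numbers 4 and 5 in their source names, and WT CFA 3 and 4 carry 6 and 7. The low and high Osmr values in WT CFA follow this split, and its cause was not tested. With a covariate that splits WT libraries by the number in their source names, the call was kept (0.18, edgeR adjusted p = 0.00527).

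In bulk ganglia, fewer cells of a type and less RNA per cell cannot be told apart, and Osmr is also expressed by fibroblasts and vessel cells. The summed level of 8 fibroblast and vascular markers was 282 to 496 CPM in KI CFA, 352 to 543 in KI saline, 211 to 358 in WT CFA and 383 to 409 in WT saline. None of these markers was at 0 in any library. Of the 8, Pdgfra alone was called higher in KI (0.40 ± 0.11, edgeR adjusted p = 0.029) and none lower, with a list median of 0.24 on the log2 scale. Their part in the Osmr result was not tested.

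Under saline alone, edgeR called no member between KI and WT, against 4.34% of all tested genes. At an unadjusted p under 0.05 the count was 4 of 8, namely Osmr, Htr1f, Cysltr2 and Lpar3, all higher in KI, against 23.8% of tested genes in either direction and 11.2% higher. DESeq2 called 2 members, Osmr and Htr1f, and limma-voom called 1. The shares of all tested genes called by these methods under saline are not given here, so these counts have no background beside them. Osmr and Cysltr2 did not overlap between KI saline and WT saline, 2 of 8 against 6.67% of tested genes higher without overlap. Osmr gave a log2 fold change of 0.24 ± 0.07 (edgeR adjusted p = 0.0505).

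Htr1f (chr16:64924729-65105854, minus strand), an inhibitory serotonin receptor, had the largest saline estimate of the receptors. It had 6.40, 5.90, 6.76 and 6.30 CPM in KI CFA, 7.61, 7.42, 6.14 and 7.21 in KI saline, 6.08, 6.04, 6.45 and 5.02 in WT CFA, and 6.75, 4.87, 5.53 and 4.14 in WT saline. All 4 KI saline libraries exceeded the WT saline median, yet WT saline 1 lay above KI saline 3. The log2 fold change was 0.42 ± 0.14 under saline (95% interval 0.13 to 0.70, edgeR adjusted p = 0.0781) and 0.26 ± 0.10 over both injections (edgeR adjusted p = 0.0971).

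Cysltr2 (chr14:73025603-73049114, minus strand) is a receptor for cysteinyl leukotrienes. It had 10.3, 9.03, 12.1 and 12.0 CPM in KI CFA, 12.0, 10.5, 12.0 and 9.77 in KI saline, 7.92, 10.4, 11.8 and 9.63 in WT CFA, and 9.33, 8.60, 9.44 and 8.70 in WT saline. The lowest KI saline library, at 9.77 CPM, lay above the highest WT saline library, while the CFA groups overlapped. Its log2 fold change was 0.30 ± 0.12 under saline (edgeR adjusted p = 0.152) and 0.21 ± 0.09 over both injections (edgeR adjusted p = 0.133). Limma-voom called Cysltr2 over both injections and edgeR did not.

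Lpar3 (chr3:146220963-146286186, plus strand) had 72.5, 79.9, 76.5 and 88.7 CPM in KI CFA, 90.5, 77.0, 88.5 and 70.5 in KI saline, 77.0, 64.2, 69.9 and 77.7 in WT CFA, and 73.5, 69.6, 74.3 and 69.7 in WT saline. The 3 libraries above 80 CPM were all KI, and the groups overlapped. Over both injections its log2 fold change was 0.16 ± 0.06 (edgeR adjusted p = 0.0882), with 7 of 8 KI libraries above the WT median.

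Il31ra (chr13:112519898-112594360, minus strand) encodes the subunit that binds interleukin-31. A processed pseudogene on the same strand, Gm3226, lies within its span, so a share of its counts is uncertain. Il31ra had 30.7, 25.7, 37.1 and 38.6 CPM in KI CFA, 33.8, 32.2, 26.4 and 38.1 in KI saline, 24.0, 30.1, 29.5 and 37.0 in WT CFA, and 28.4, 24.6, 29.3 and 25.2 in WT saline. Values near 25 and near 38 CPM both occurred in KI, and WT saline kept to the lower part of that span. The log2 fold change was 0.21 ± 0.10 over both injections (95% interval 0.00 to 0.41, edgeR adjusted p = 0.196).

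**Figure D2:**
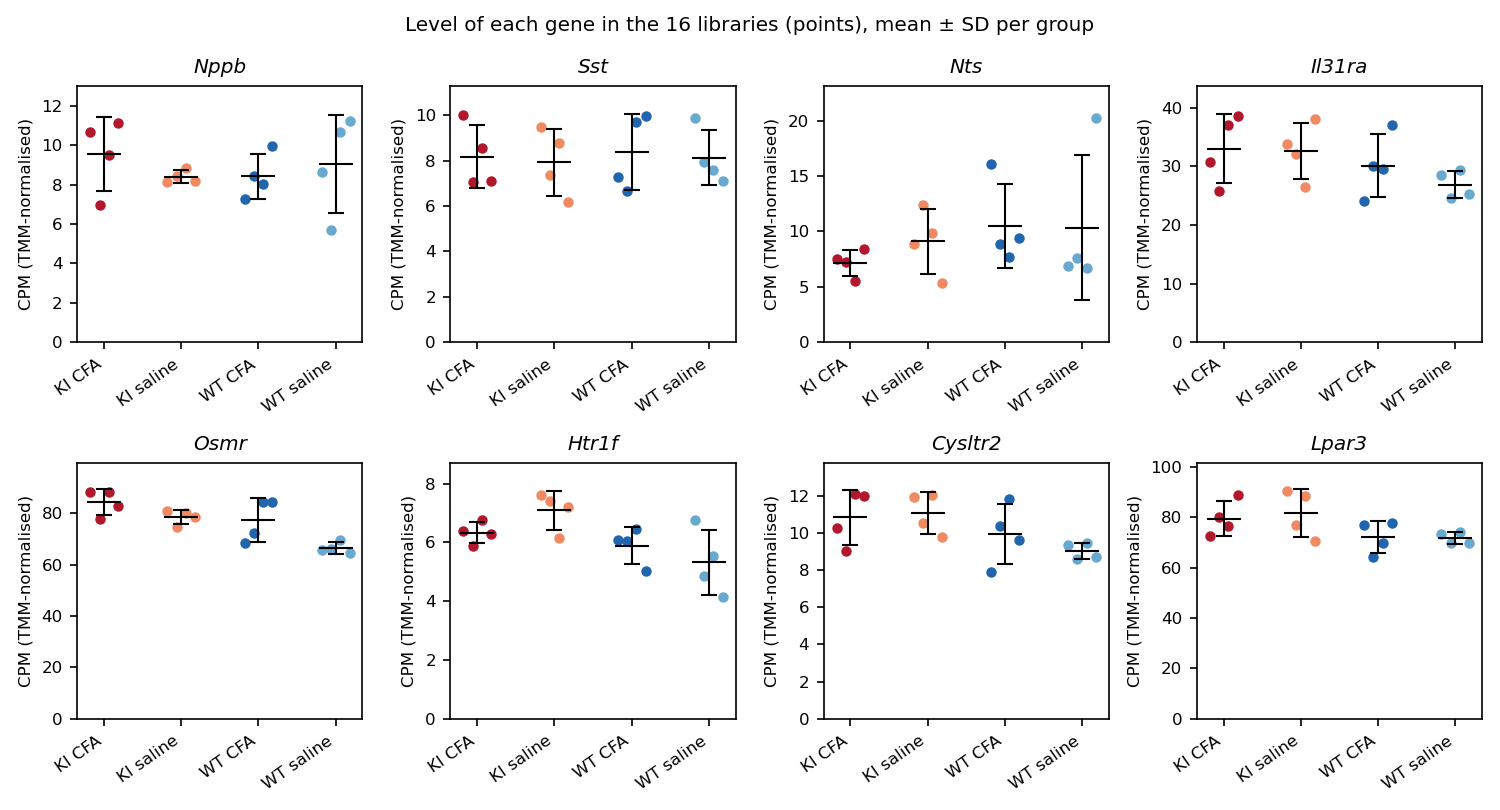
CPM of each of the 8 genes in every library (points) with the mean and SD of each group of 4 (bars), one panel a gene with its own axis from 0. Osmr lies at 74.6 to 88.4 CPM in KI and at 64.3 to 69.7 in WT saline, and Nts shows single high libraries at 20.2 CPM in WT saline and 16.1 CPM in WT CFA.

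None of the 3 peptides was called between genotypes, and whether peptides and receptors differ in this was not tested. Nppb, natriuretic polypeptide b, had 10.7, 6.96, 9.51 and 11.1 CPM in KI CFA, 8.12, 8.45, 8.87 and 8.18 in KI saline, 7.29, 8.42, 8.02 and 9.94 in WT CFA, and 8.63, 5.72, 10.7 and 11.2 in WT saline. KI saline was tight and WT saline held both the lowest and the highest Nppb library. The log2 fold change was 0.04 over both injections, with a 95% interval of -0.22 to 0.30 (edgeR adjusted p = 0.874).

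Sst, the inhibitory peptide somatostatin, had 10.0, 7.05, 8.55 and 7.13 CPM in KI CFA, 9.48, 7.37, 8.77 and 6.16 in KI saline, 7.29, 6.66, 9.69 and 9.97 in WT CFA, and 9.90, 7.93, 7.61 and 7.11 in WT saline. The group means lay between 7.94 and 8.40 CPM, closer together than the libraries within any group. The log2 fold change was -0.04, with a 95% interval of -0.28 to 0.21 (edgeR adjusted p = 0.878).

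Nts, the peptide neurotensin, had 7.48, 7.25, 5.56 and 8.41 CPM in KI CFA, 8.86, 12.4, 9.82 and 5.33 in KI saline, 16.1, 8.84, 7.70 and 9.43 in WT CFA, and 6.89, 7.62, 6.70 and 20.2 in WT saline. WT saline 4 was high above its group, and WT CFA 1 was the next highest of the 16 libraries. The log2 fold change over both injections was -0.37, with a 95% interval of -0.85 to 0.11 (edgeR adjusted p = 0.343). It ran from -0.46 to -0.09 without single libraries. Without WT saline 4 it was -0.09, and the saline estimate was 0.37, against -0.18 with all 16 libraries, so the direction under saline rests on that library.

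**Figure D3:**
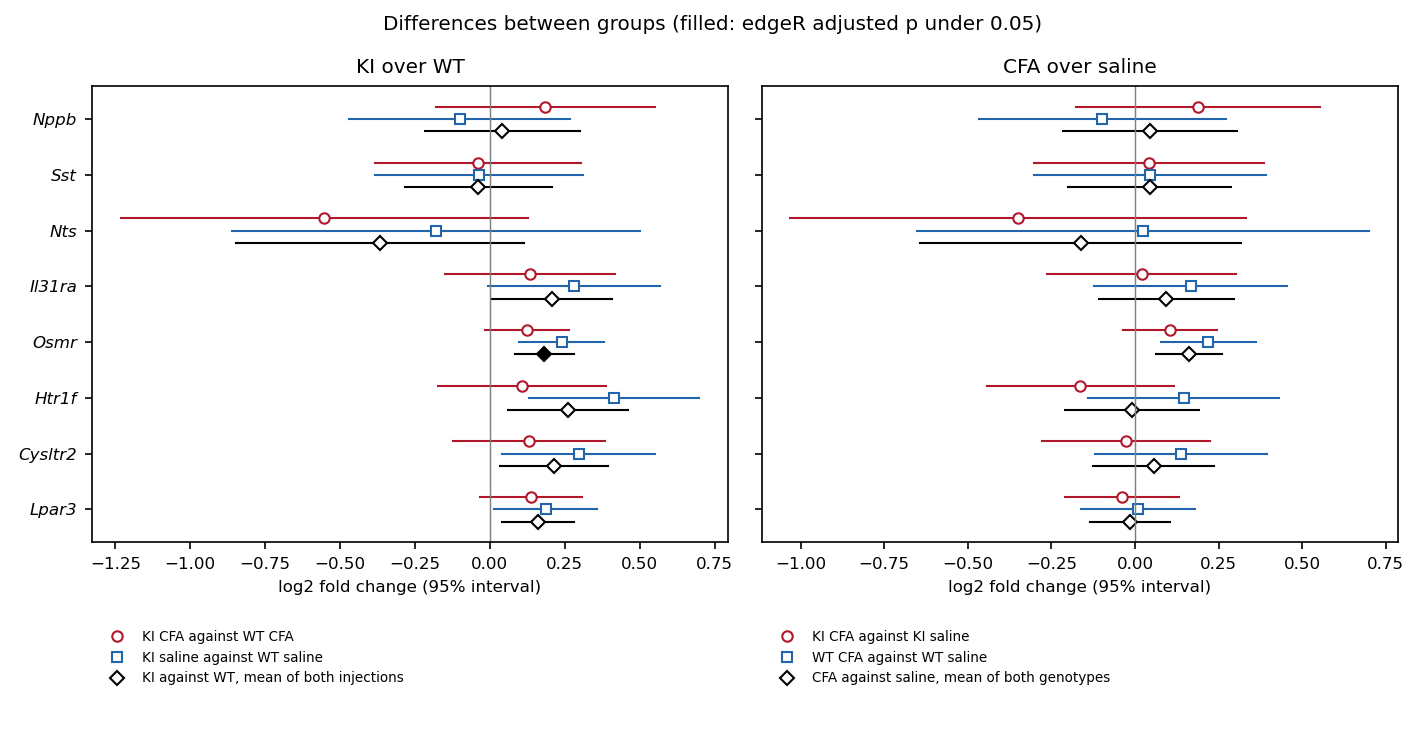
Log2 fold changes with 95% intervals for the 8 genes in the genotype and injection comparisons, filled where edgeR called the gene. Osmr over both injections, at 0.18, is the filled point, and the Nts intervals are the widest, from -0.85 to 0.11 in that comparison.

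Under CFA, edgeR called no member between KI and WT, against 2.84% of tested genes, and none had an unadjusted p under 0.05, a level that 12.7% of tested genes passed. DESeq2 and limma-voom called 0 members. Osmr gave 0.12 ± 0.07 (95% interval -0.02 to 0.26, edgeR adjusted p = 0.48). The Osmr estimate was 0.07 without WT CFA 1 and -0.0027 without WT CFA 1 and 2. Lpar3 gave 0.14 (-0.03 to 0.31) and Nppb gave 0.19 (-0.18 to 0.55). Nts gave -0.55 (-1.23 to 0.13), and all 4 of its KI CFA libraries lay below the WT CFA median. Without WT CFA 1, the library at 16.1 CPM, the Nts estimate was -0.27. The saline and CFA genotype differences were not called different for any member: the interaction called 0 of 15507 genes (0%) in edgeR, and DESeq2 and limma-voom called 0. No member had an unadjusted p under 0.05 there, against 6.29% of tested genes. The interaction estimate was -0.12 for Osmr (95% interval -0.31 to 0.08), -0.31 for Htr1f (-0.71 to 0.09) and 0.29 for Nppb (-0.23 to 0.81).

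CFA itself was set against saline within each genotype, the comparison of inflamed with uninflamed joints. In KI, edgeR called 0 of 15507 genes (0%) and no member had an unadjusted p under 0.05, a level that 5.68% of tested genes passed. DESeq2 called 15 genes and limma-voom 0, none of them a member. The interval for Osmr in KI was -0.04 to 0.24 around 0.10, and that for Nppb was -0.18 to 0.55 around 0.19. In WT, edgeR again called 0 genes (0%), while 6.96% had an unadjusted p under 0.05. Osmr was the 1 member with an unadjusted p under 0.05 there, at 0.22 ± 0.07 (95% interval 0.08 to 0.36, unadjusted p = 0.00442 in edgeR, adjusted p = 0.621). DESeq2 called 24 genes and limma-voom 1, none a member.

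Over both genotypes, edgeR called 4 of 15507 genes with CFA (0.0258%), none of them a member. At an unadjusted p under 0.05 the count was 1 of 8 members, Osmr, against 6.57% of tested genes. Osmr gave 0.16 ± 0.05 (edgeR adjusted p = 0.406), and 7 of 8 CFA libraries lay above the saline median. WT CFA 3 and 4, at 84.5 CPM, lay well above the other WT libraries, WT CFA 1, at 68.2, lay within the WT saline range, and WT CFA 2, at 72.2, lay above it. The estimates for the other 7 members lay between -0.16 (Nts) and 0.09 (Il31ra), and that of Nts was 0.11 without WT saline 4. The comparisons share groups, so their values are given side by side and not counted as separate evidence.

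The members differed in how much they varied between libraries of a group. Nts had a pooled coefficient of variation of 40.7%, far above the 5.88% that counting alone gives, and above that of 99.2% of 2136 genes of like level. Without WT saline 4 it was 25.7%, above 97.0% of those genes computed the same way. Il31ra, at 15.2%, exceeded 95.4% of 2836 like-level genes, and Nppb, at 18.2%, exceeded 88.0% of 2099. Without single libraries the rank of Il31ra stayed between 92.45% and 97.21%. Without WT saline 2, Nppb was at 13.7% and exceeded 63.25%, so its high rank rests in part on that library. Sst varied by 17.8%, above 84.3% of 2023 like-level genes. Osmr (6.69%), Cysltr2 (12.0%) and Htr1f (12.8%) exceeded 54.3%, 56.2% and 38.1% of genes of their level, and Lpar3 (8.66%) exceeded 76.3%. Without single libraries these ranks ran from 40.3% to 72.6% for Osmr and from 34.4% to 68.3% for Cysltr2. They ran from 14.6% to 54.0% for Htr1f and from 68.6% to 89.9% for Lpar3. Without WT saline 4, Osmr stayed at 6.67% and Lpar3 at 8.66%, yet their ranks were 72.6% and 89.9%.

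Co-variation was examined on deviations of log2 CPM from the group means over the 16 libraries, in 28 pairs of members. The receptor pair Il31ra and Osmr gave r = 0.53 and rho = 0.43 (permutation p = 0.0941 within groups, adjusted p = 0.439), and r was 0.21 without KI CFA 2 and WT CFA 1. The largest correlation was that of Sst and Osmr, r = 0.68 and rho = 0.66 (permutation p = 0.0257, adjusted p = 0.36), and it was 0.74 without its 2 farthest libraries. In WT CFA, the libraries 1 and 2 were low and 3 and 4 high in both of these genes. Osmr and Cysltr2 gave r = 0.64 and rho = 0.55 (permutation p = 0.0543, adjusted p = 0.373), and 0.36 without WT CFA 1 and 3. Nts and Osmr ran in opposite directions, with r = -0.48 (rho = -0.49, permutation p = 0.032, adjusted p = 0.36) and -0.30 without WT CFA 1 and WT saline 4. The most negative r of Nts was -0.51 with Htr1f (permutation p = 0.171), while Nts gave 0.23 with Nppb and 0.26 with Lpar3. No pair passed 0.05 after Benjamini-Hochberg adjustment over the 28 pairs, the smallest adjusted p being 0.36. The 2 classical markers of the class, Nppb and Sst, gave r = 0.13.

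**Figure D4:**
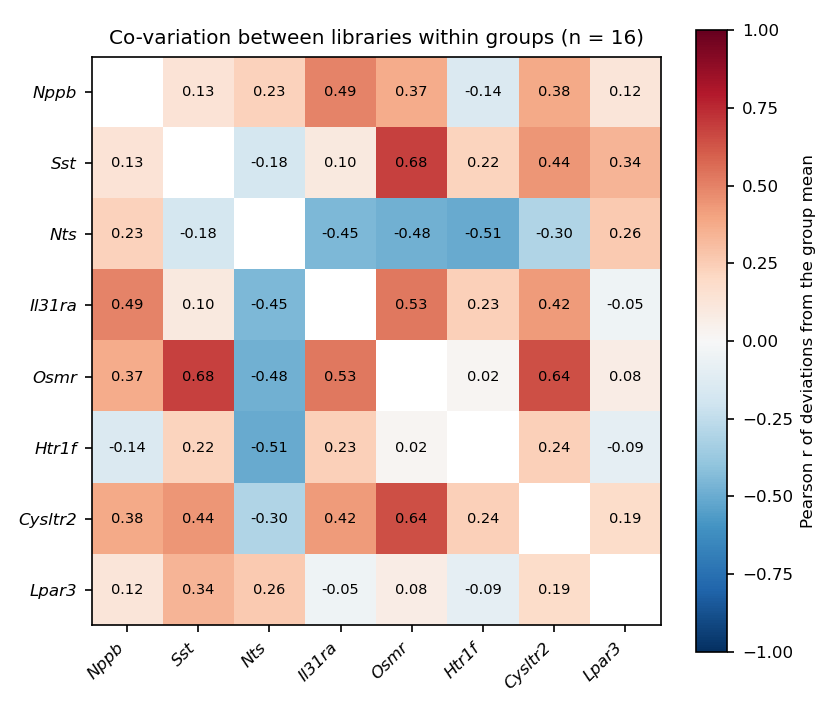
Pearson correlation of each pair of the 8 genes over 16 libraries after removal of group means, as a colour matrix. Sst with Osmr at 0.68, Osmr with Cysltr2 at 0.64 and Il31ra with Osmr at 0.53 are the pairs above 0.5, and Nts is most negative with Il31ra, Osmr and Htr1f.

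The genes most like each member across the 16 libraries were sought among the 13732 non-member genes that averaged 1 CPM or more, and are given as a description because they are the best of many. The closest gene to Osmr was Mrgprx1, an itch receptor of the Mas-related family, with r = 0.92 and rho = 0.92 over 16 libraries, 0.90 within groups and 0.94 without its 2 farthest libraries. Mrgprx1 ran from 19.0 to 29.8 CPM. The closest to Nppb were Synpr, a synaptic vesicle protein gene (r = 0.84), and Ggta1 (r = 0.83). Slc29a1, a nucleoside transporter gene, was among the closest to Lpar3 (r = 0.83). The closest to Il31ra were Lactb2 (r = 0.79), Nek4 (r = 0.78) and Ptafr, the receptor for platelet-activating factor (r = 0.77). Ptafr was low, at 2.09 to 4.21 CPM, and gave r = 0.71 within groups. Gpd1 was the closest to Nts at r = 0.84, which became 0.59 without the 2 farthest libraries. Sst was closest to Tra2b (r = 0.76), Htr1f to Pds5b (r = 0.90) and Cysltr2 to Ap1ar (r = 0.83).

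Other genes of these pathways were read from lists of ligands, partners and effectors, over both injections. For the counts that follow, 4.33% of all tested genes were called higher in KI and 4.64% lower. Of 14 genes around the cytokine receptors, 11 were tested and 1 rose in KI: Lifr, the leukemia inhibitory factor receptor (0.16 ± 0.05, edgeR adjusted p = 0.0372), whose call was kept in 7 of 16 fits without 1 library. That count of 1 in 11 is near the 8.96% of all tested genes that were called. Il6st (gp130) gave 0.01 and Jak1, a kinase of these receptors, 0.14 (edgeR adjusted p = 0.0824). The list median was 0.09 on the log2 scale, against 0.17 for the 8 members and 0.00 for all tested genes. The ligands Il31, Osm and Il6 did not pass the filter on low counts.

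Of 22 peptide partners, 16 were tested, 2 rose and 4 fell in KI, with a median of 0.05. Sstr2, a somatostatin receptor, rose by 0.44 ± 0.07 (edgeR adjusted p = 0.000259). The peptide genes Calca (-0.81 ± 0.09) and Tac1 (-0.53 ± 0.08), which encode CGRP and substance P, fell, as did Pcsk1, a peptide-processing enzyme (-0.45 ± 0.05). Sort1, a neurotensin-binding sorting receptor, was the other gene that rose (0.24), and Nmb, the peptide neuromedin B, the other that fell (-0.32). Npr1, a receptor for natriuretic peptides, gave 0.30 (edgeR adjusted p = 0.266), and Ntsr1 and Ntsr2, the neurotensin receptors, gave 0.15 and 0.06.

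Of 24 other itch receptors, 21 were tested, 3 rose and 1 fell in KI, with a median of -0.01. Mrgprd, the beta-alanine receptor, rose by 0.32 ± 0.05, Ednra, an endothelin receptor, by 0.40 ± 0.09, and Lpar5, another lysophosphatidic acid receptor, by 0.22 ± 0.06. The Lpar5 call was kept in 9 of 16 fits without 1 library. S1pr3, a sphingosine 1-phosphate receptor, fell (-0.34 ± 0.04). Mrgprx1 gave 0.18 (edgeR adjusted p = 0.177) and Mrgpra3, the chloroquine receptor, 0.05.

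Of 12 channels and signalling effectors, all were tested, 5 rose and 1 fell in KI, with a median of 0.14. Ano1, a calcium-activated chloride channel, rose by 0.80 ± 0.09, Scn11a, a sodium channel, by 0.25 ± 0.05, and Gna14, a G protein subunit, by 0.17 ± 0.03. The other genes that rose were Plcb3, a phospholipase C (0.18), and Gnaq, a G protein subunit (0.15). Trpv1, the capsaicin receptor, fell (-0.52 ± 0.07). With CFA against saline, no gene of these 4 lists was called in KI, in WT or over both genotypes.

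**Figure D5:**
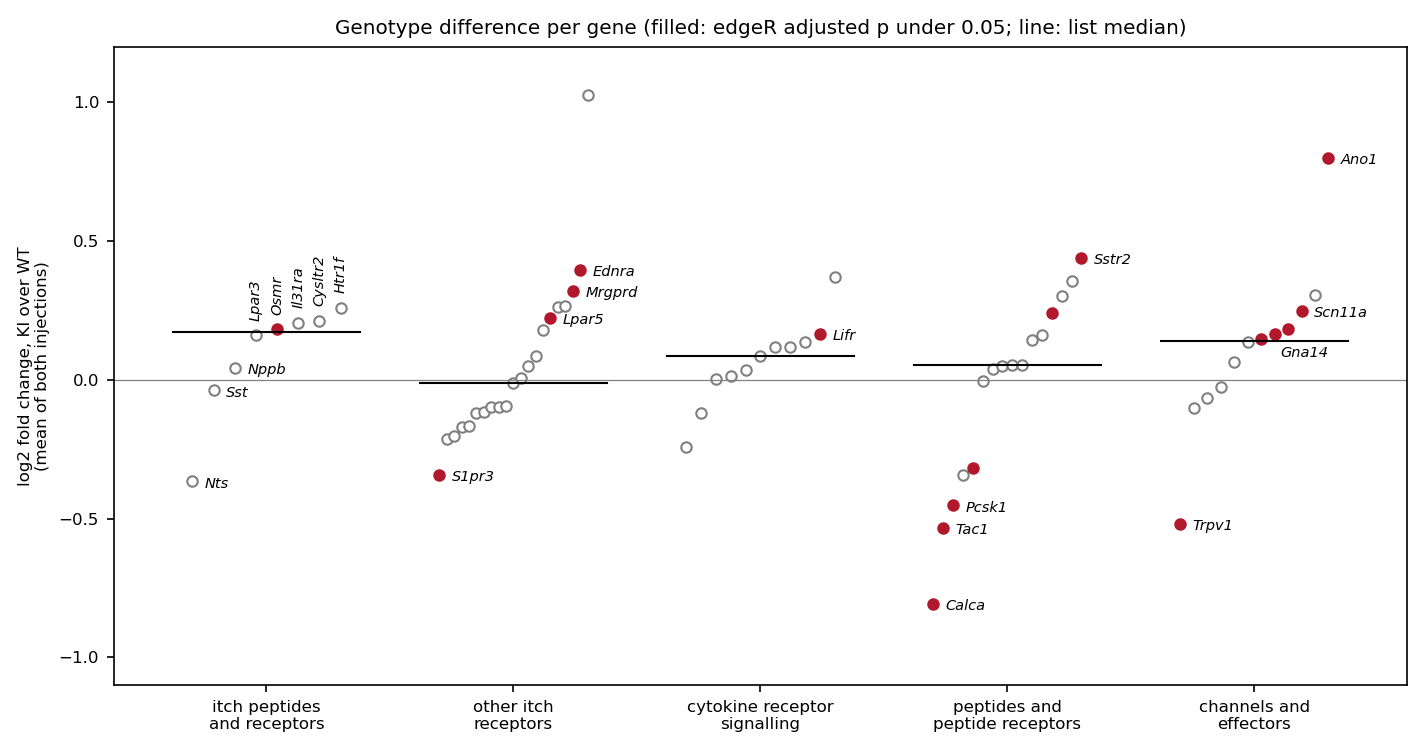
Log2 fold change of KI over WT, mean of both injections, for each tested gene of the 8 members and of 4 lists, sorted within a list, with filled points called by edgeR and a line at each median. The members have a median of 0.17 with Osmr filled, and the peptide list runs from Calca at -0.81 to Sstr2 at 0.44.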

How the data were processed

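RNA was measured by poly-A selected, single-end sequencing of 16 libraries. Per the submitters' processing notes, the authors used HTSeq 0.6.1p1, SAMtools 1.5, Bowtie2 2.3.5.1 and TopHat2 2.1.1 on build mm10, beside bcl2fastq 2.20 and FastQC. How strand was counted, the annotation and the settings are not given in the sources used here, so reads of overlapping or antisense genes cannot be separated. The deposited table holds raw counts, whole numbers of reads for each gene, not normalized by the authors. Groups came from the sample titles.

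All tests were fitted with edgeR 4.0.16 (R 4.3.3): TMM factors, filterByExpr, 1 mean per group over all 16 libraries, and quasi-likelihood tests of 7 comparisons with Benjamini-Hochberg adjustment over 15507 genes. CPM are TMM-normalised and log2 CPM used a prior count of 2. Group means are ± SD and fold changes ± SE. The 28 entries with no identifier stayed in the table. Lengths and positions were taken from GENCODE and promoters from RefSeq. Correlations were tested with 100000 permutations within groups. DESeq2 1.42.0 and limma 3.58.1 (voom with quality weights) were alternatives, with other factors, filters, thresholds, a replicate block, covariates and fits without single libraries. The fit was tested on simulated data.

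The members and lists were chosen with earlier results of these data known. All 8 members are named in every comparison. Of each other list, at most 4 genes with the smallest p were named, called ones first, and for each member the 3 best correlated genes were considered. Outside that rule, Il6st, Npr1, Ntsr1, Ntsr2, Mrgpra3, Sort1, Nmb, Plcb3, Gnaq and the ligands were chosen with their values in view. One gene that the rule gave is not reported here.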

Additional observations from a re-analysis of the deposited data

Results flagged for a closer look

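Nts in WT saline 4, at 20.2 CPM, stood apart from the other 3 WT saline libraries, which had 6.89, 7.62 and 6.70 CPM. It was flagged because its gap to the nearest of them, divided by the range of the group, exceeded Dixon's 95% critical value for 4 samples. It was 1 flag among 32 groups of 4 that were examined, and chance flags about 1 in 20 groups. The same library had the highest Nppb (11.2 CPM), the lowest Osmr (64.3 CPM) and the lowest Htr1f (4.14 CPM) of all 16. Its TMM factor (1.04) and its sum of 6 glial markers (3438 CPM) were the highest of all 16, and its Ntrk3 (29.3 CPM) the lowest. Some of these extremes were narrow: Nppb was 11.1 CPM in KI CFA 4 and Osmr 65.7 CPM in WT saline 1. Nts alone was flagged, and how many extremes other libraries held was not counted. The extreme values of WT saline 4 were thus not confined to Nts, and this library enters every saline comparison. Without WT saline 4, Osmr in KI against WT under saline was 0.22 (edgeR adjusted p = 0.103), against 0.24 with all 16 libraries.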

How the results depend on the processing

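Over both injections, Osmr in KI against WT was called in 26 of 29 alternatives. The number of members called was 1. It was 2 with limma-voom (Osmr and Cysltr2), 3 at an adjusted p under 0.1, and 0 at an adjusted p under 0.01, without WT CFA 1 and 2, or with a muscle score as a covariate, and 1 to 2 without single libraries. Under saline the number was 0. It was 1 with RLE factors, no filter, a filter at 1 CPM, limma-voom, robust dispersion, or without WT CFA 1 and 2. It was 2 with DESeq2, at an adjusted p under 0.1, or with a covariate that splits WT libraries by the number in their source names, and 0 to 1 without single libraries. For these alternatives the share of all tested genes called is not given here. A change in the count of members can therefore not be set against the change over all genes. The cause of these shifts was not tested. The number of pairs correlated above 0.5 was 3, and ran from 1 to 6 without single libraries. Among the spreads recomputed without single libraries, an alternative chosen after seeing the data, that of Nts moved by over 1.5 times, to 25.7% without WT saline 4. Ranks among genes of like level moved for other members too, that of Nppb to 63.25% without WT saline 2. No member's call was reversed. The replicate block left Osmr at 0.18 (edgeR adjusted p = 0.0192). Libraries matched by the replicate number of their titles gave 24 correlations between -0.21 and 0.13, of which 3 exceeded 0.1. That gave no evidence of pairing by replicate number. The numbers in the source names do not follow the replicate numbers (KI saline 4 and WT saline 3 share 8), and pairing by them was not tested.

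Counting alone gave a coefficient of variation of 2.03% (Osmr) to 7.17% (Htr1f), so the spread between libraries, not depth, sets most of the error. Intervals rest on 4 libraries of pooled mice per group, and a p that misses the threshold does not show equal levels. PCR copies of a read cannot be told from separate molecules here, so counting error is a lower limit. Lanes are not tied to libraries in the labels, so lane and group cannot be told apart.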
